A study of Mus musculus with 8 samples.

Results

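Protein tyrosine phosphatases remove phosphate from tyrosine in proteins and so oppose the tyrosine kinases. The dual-specificity phosphatases of the same superfamily also act on serine and threonine, and one branch of them, the MAP kinase phosphatases, switches off the MAP kinases that carry stress and growth signals in heart muscle. Other members have lost catalytic activity, or sit in secretory vesicles or at cell contacts. The family described here holds every gene whose symbol is Dusp, Ptpn or Ptpr followed by its number or letter, with Styx and Styxl1. It comprises 64 of the 24411 gene symbols in the tables, of which 21 are receptor-type (Ptpr), 17 non-receptor (Ptpn) and 26 dual-specificity or STYX-type. The members were chosen by symbol, but the family was selected on the read counts of Ptprn2, Styxl1 and Dusp26, which stood out between the genotypes of these same hearts. Their differences are therefore given as a description, with no test, and the counts over the family describe it and support nothing further.

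RNA was measured in hearts of 4 cardiac-specific YY1 KO mice and 4 MerCreMer control mice, all C57BL/6 with all hearts taken 1 week after aortic constriction surgery, which raises the pressure load on the left ventricle. In the YY1 KO mice Yy1, which encodes the zinc-finger transcription factor Yin-Yang 1, is deleted in the heart. MerCreMer is a Cre recombinase fused to modified oestrogen receptor domains so that an oestrogen receptor ligand activates it, and the controls are named for the same transgene. Every heart had been operated on, so the genotype comparison is one within pressure overload. The promoter driving the transgene, the time of induction and the ages of the mice were not stated in the labels. Whole heart holds many cell types, and fewer cells of a type cannot be told apart from less RNA per cell.

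The promoters of 3 members are shown because the results return to them: Ptprn2 and Styxl1, which had the largest positive log2 fold changes of the family, and Dusp1, the most abundant MAP kinase phosphatase per kilobase. Each RefSeq window (GRCm38.p6) runs 5′ to 3′ from 250 bases before to 50 bases after the annotated start. The Ptprn2 window is chr12:116485470-116485769, plus strand, that of Styxl1 is chr5:135778336-135778635, minus strand, and that of Dusp1 is chr17:26508423-26508722, minus strand. Capitals mark TGACGTCA, the cAMP response element, in Styxl1 and Dusp1. In Ptprn2 they mark a pair of adjacent stretches that read GGACAGC and TCAGCACC on the opposite strand. Both strings also occur in the RE1 element bound by the neuronal repressor REST. Here they abut with no base between them, and whether they form an RE1 element was not tested. The Styxl1 window also takes in the annotated start of the neighbouring gene Mdh2 (135778480, plus strand), and its marked stretch lies within Mdh2.
Ptprn2: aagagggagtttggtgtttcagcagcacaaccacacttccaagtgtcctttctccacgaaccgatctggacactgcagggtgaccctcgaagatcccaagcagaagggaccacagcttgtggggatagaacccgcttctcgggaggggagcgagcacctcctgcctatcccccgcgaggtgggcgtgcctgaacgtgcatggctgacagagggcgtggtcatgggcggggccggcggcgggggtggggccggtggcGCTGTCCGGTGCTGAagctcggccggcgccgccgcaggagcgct
Styxl1: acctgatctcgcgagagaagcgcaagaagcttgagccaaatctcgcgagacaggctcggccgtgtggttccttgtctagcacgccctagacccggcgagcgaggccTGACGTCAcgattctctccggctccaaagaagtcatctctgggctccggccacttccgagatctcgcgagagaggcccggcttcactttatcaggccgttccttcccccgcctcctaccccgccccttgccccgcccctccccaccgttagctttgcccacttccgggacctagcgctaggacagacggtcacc
Dusp1: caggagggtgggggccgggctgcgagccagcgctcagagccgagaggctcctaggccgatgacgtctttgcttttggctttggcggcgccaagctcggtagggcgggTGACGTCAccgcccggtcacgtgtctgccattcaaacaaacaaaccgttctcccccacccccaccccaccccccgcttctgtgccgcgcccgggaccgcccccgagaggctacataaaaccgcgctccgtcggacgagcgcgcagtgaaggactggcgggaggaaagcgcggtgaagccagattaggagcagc

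Windows were on hand for 52 of the 64 symbols, 70 windows in all, and both strands were searched. TGACGTCA was in 7 of the 70 family windows (10%), belonging to 6 genes, with 2 overlapping windows for Styxl1 (Ptpru, Ptpn11, Styxl1, Dusp8, Dusp1 and Ptprs), and in 1.79% of all 32851 windows. GGACAGC was in 6 of the 70 family windows and 6.56% of all windows, and TCAGCACC in 1, that of Ptprn2, and 1.65%. ATGGCGG, the core letters of the YY1 motif, was in 0 of the 70 family windows and 4.05% of all windows. The motifs were chosen after values and sequences had been seen, and these are matches of letters, not measured binding.

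The libraries held 14582605 to 16000455 reads assigned to genes. Yy1 itself averaged 21.04 ± 2.55 CPM (read counts scaled to a common library size) in YY1 KO hearts and 36.1 ± 1.58 CPM in controls (here and below, SD beside CPM and SE beside log2 fold changes, n = 4 each), which is 58.3% of the control level (edgeR adjusted p = 0.000769). The labels call all mice male, but 4 hearts, 2 of each genotype, carried Xist and lacked Y-linked reads beyond trace level, while the other 4 showed the reverse. Both kinds of heart are thus balanced between the genotypes, and values within each kind are given near the end. The summed cardiomyocyte markers were 66320 to 92176 CPM in YY1 KO hearts and 95267 to 131618 CPM in controls (10 of 10 detected), so these markers were abundant in every heart, and the sums of the genotypes did not overlap. The markers did not move as one: Atp2a2, Myl2 and Actc1 were lower, Mybpc3 was higher (log2 fold change 0.50 ± 0.15, edgeR adjusted p = 0.0244), and the other 6 did not pass. Their part in the results below was not tested.

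Of the 64 members, 53 passed the filter on low counts. Ptprn2, Styxl1 and Dusp26 are among these only through the YY1 KO hearts, since their control means lay below the 0.648 CPM that the filter amounts to, and they are left out of the counts that follow. Of the other 50, 10 were higher and 11 lower in YY1 KO (edgeR quasi-likelihood test, threshold 0.05 after Benjamini-Hochberg adjustment over all genes tested), and 29 did not pass. Over all 13506 genes tested, 38.9% were called, 21.6% higher and 17.3% lower, so the 42.0% called here stands near a high background and nothing is read from it. The lower count was 7 without YY1 KO replicate 2 and 5 without YY1 KO replicate 3. Of the 21 calls in both directions, 13 and 11 remained in those fits. The higher members Dusp4, Ptpn21, Ptpra and Ptprd were lost in both. All 21 called members kept their direction in those fits. Counts over all genes in those fits are not given, so nothing particular to the family is read from the drop. The median log2 fold change (YY1 KO over control) was −0.14 over the 50 members and 0.013 over all genes tested. Values of the groups did not overlap in 20 of them (40.0%), against 38.3% of all genes tested. By class, 3 receptor-type members were higher and 5 lower of 17. Among 15 non-receptor members 5 were higher and 1 was lower. Among 18 dual-specificity members 2 were higher and 5 lower. In the plot of fold changes by class, the 3 members that led to the choice of the family and Ptprn lie apart from the rest, which all lie between −1.13 (Dusp7) and 1.20 (Dusp4).

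**Figure D1:**
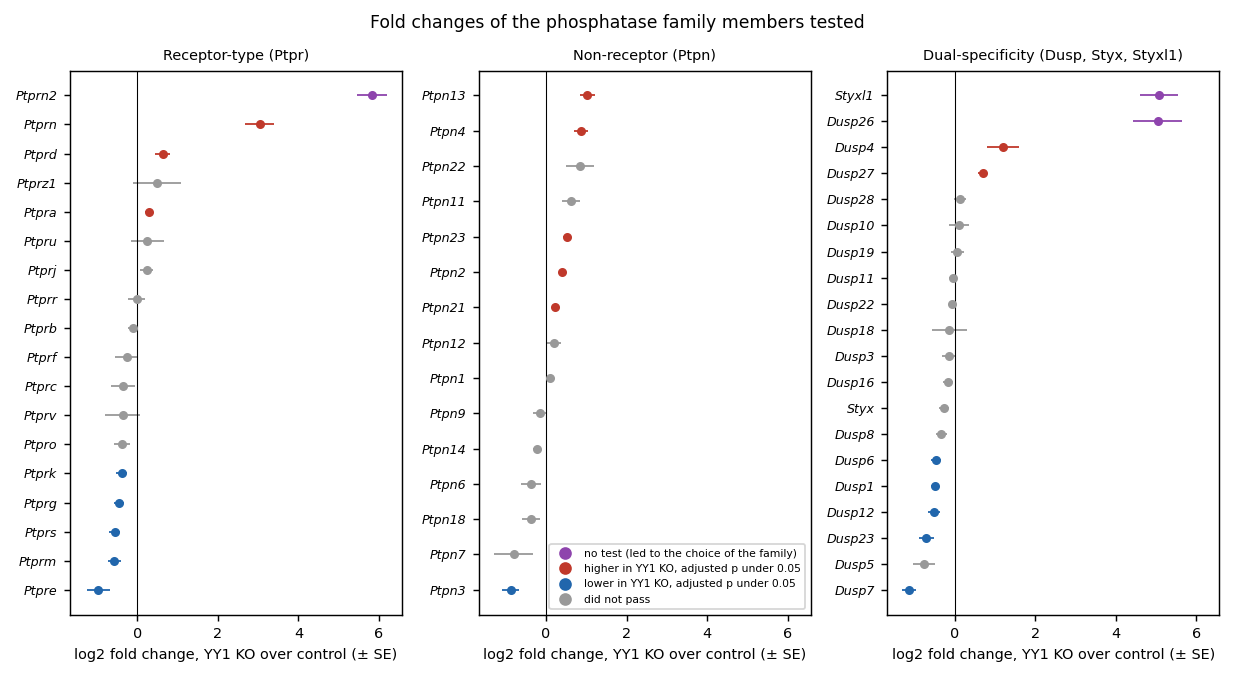
Log2 fold change of each tested family member, YY1 KO over control, with its standard error, in 1 panel per class (18 receptor-type, 15 non-receptor and 20 dual-specificity or STYX-type members). Red and blue points passed the edgeR test as higher or lower in YY1 KO hearts, grey points did not, and the 3 purple points, which carry no test, lie above 5. The standard errors are implied by the edgeR F statistic, and those of the purple points are not to be read as a test.

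The widest fold changes among the receptor-type members belonged to the pair of vesicle proteins. Ptprn2 and Ptprn encode transmembrane proteins of dense-core secretory vesicles in neuroendocrine cells, with a phosphatase domain that lacks usual catalytic activity. Ptprn2 (GENCODE M21 on GRCm38, chromosome 12, 116485720 to 117276849, plus strand) had 9.08, 20.7, 16.2 and 16.4 CPM in YY1 KO hearts, against 0.211, 0.498, 0.190 and 0.190 CPM in controls. All YY1 KO hearts lay far above all controls, and control replicate 2 was the highest control. That is 971 reads over the 4 YY1 KO libraries and 16 over the 4 control libraries, a ratio of 57.7. The fitted log2 fold change was 5.82. With so few control reads both are loose. Ptprn (chromosome 1, 75247027 to 75264502, minus strand) had 79.2, 135, 137 and 47.6 CPM in YY1 KO hearts, against 8.66, 16.3, 14.5 and 9.17 CPM in controls. The groups did not overlap here either, although YY1 KO replicate 4 was the lowest of its group, and Ptprn rose 8.20-fold on the ratio of means (log2 fold change 3.03 ± 0.37, edgeR adjusted p = 0.000585). It was called without each library in turn and by each alternative fit, with log2 fold changes of 2.85 to 3.27 when single libraries were left out.

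Other genes of dense-core vesicles did not share one direction. Of 27 such genes, 14 were tested, 3 were higher and 3 lower, with a median log2 fold change of −0.087. That is 21.4% in each direction, against 21.6% higher and 17.3% lower over all genes tested, so nothing is read from these counts. Cpe, the carboxypeptidase that trims prohormones, averaged 655 ± 7.57 CPM in YY1 KO hearts and 367 ± 24.4 CPM in controls (log2 fold change 0.84 ± 0.090, edgeR adjusted p = 0.000369). Pam, which amidates peptide hormones and is abundant in atrial muscle, also rose (log2 fold change 0.64 ± 0.14, edgeR adjusted p = 0.00649). Dbh, the noradrenaline-synthesising enzyme of sympathetic terminals, fell (log2 fold change −2.75 ± 0.45, edgeR adjusted p = 0.00185), as did Syt7, a calcium sensor of exocytosis (log2 fold change −0.77 ± 0.19, edgeR adjusted p = 0.0120). The summed neuronal markers were 18.3 to 36.6 CPM in YY1 KO hearts and 8.66 to 15.2 CPM in controls, with no overlap. Tubb3 and Stmn2, which encode a tubulin and a tubulin-binding protein of neurons, made up nearly all of it. Tubb3 averaged 16.7 ± 9.79 CPM in YY1 KO hearts and 3.58 ± 2.14 CPM in controls (log2 fold change 2.21 ± 0.54, edgeR adjusted p = 0.0112). Unlike the sums, the Tubb3 groups overlapped. Snap25, of the synaptic release machinery, averaged 0.0340 CPM in YY1 KO hearts and was at 0 in controls, and only Tubb3 and Stmn2 of the 9 markers passed the filter. Stmn2 averaged 8.12 ± 1.87 CPM in YY1 KO hearts and 6.89 ± 1.23 CPM in controls and did not pass the test. The part of neuronal markers in the Ptprn2 and Ptprn values was not tested.

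The genes beside Ptprn2 gave a mixed picture. Upstream, Esyt2 had a log2 fold change of 0.39 ± 0.091 (edgeR adjusted p = 0.00910), whereas Ncapg2, the nearest on that side, did not pass (−0.33 ± 0.40, edgeR adjusted p = 0.536). Downstream, Rapgef5 was lower (−0.75 ± 0.18, edgeR adjusted p = 0.0107). Yy1 lies on the same chromosome, and of 63 genes tested between Yy1 and Ptprn2, 15 were higher and 7 lower. Over all genes tested, 21.6% were higher and 17.3% lower. The median log2 fold change was 0.017 in this region and 0.013 over all genes tested, so nothing is read from the counts.

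Styxl1 and Dusp26 stood out among the atypical dual-specificity members. Styxl1 encodes MK-STYX, a pseudophosphatase whose catalytic cysteine is replaced. Its gene (chromosome 5, 135747220 to 135778385, minus strand) had 2.55, 3.19, 3.96 and 2.68 CPM in YY1 KO hearts, against 0.141, 0.142, 0 and 0.0632 CPM in controls. The YY1 KO values lay well apart from control values that were at the edge of detection. There were 194 reads over the 4 YY1 KO libraries and 5 over the 4 control libraries, a ratio of 36.9. The log2 fold change was 5.08, and with so few control reads both are loose. Its neighbour Mdh2, the mitochondrial malate dehydrogenase, averaged 1450 ± 208 CPM in YY1 KO hearts and 1473 ± 201 CPM in controls and did not pass, while Tmem120a on the other side was higher (0.47 ± 0.13, edgeR adjusted p = 0.0196).

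Dusp26 (chromosome 8, 31089471 to 31097047, plus strand), a small phosphatase known from neural tissue and reported to act on p38, had 16.7, 24.2, 24.2 and 3.74 CPM in YY1 KO hearts, against 0.423, 0.356, 0.569 and 0.696 CPM in controls. YY1 KO replicate 4 was far below the other 3 of its group, yet above every control. The totals were 1070 reads over the 4 YY1 KO libraries and 31 over the 4 control libraries, a ratio of 32.8. The log2 fold change was 5.04. Downstream of Dusp26, the nearest tested gene, Rnf122 (31111820 to 31131482), did not pass (−0.30 ± 0.18, edgeR adjusted p = 0.215). Upstream, the nearest tested gene was Eif4ebp1 (27260329 to 27276674), a repressor of cap-dependent translation, which was higher (0.87 ± 0.15, edgeR adjusted p = 0.00232). Eif4ebp1 lies megabases away and is a neighbour of Dusp26 only in the order of tested genes. In YY1 KO replicate 4, Ptprn was likewise the lowest of its group, but Ptprn2 and Styxl1 were not.

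Of the other atypical members, Dusp27 rose and Dusp12 and Dusp23 fell. Dusp27 encodes a pseudophosphatase of striated muscle that is needed for muscle fibre assembly in zebrafish. It had 155, 139, 137 and 146 CPM in YY1 KO hearts, against 75.9, 83.8, 112 and 85.4 CPM in controls. All YY1 KO values were above all controls (log2 fold change 0.69 ± 0.12, edgeR adjusted p = 0.00261). Dusp23, a very small phosphatase, had 5.64, 5.30, 4.87 and 6.61 CPM in YY1 KO hearts, against 12.1, 9.68, 7.26 and 7.40 CPM in controls. The groups did not overlap (log2 fold change −0.70 ± 0.20, edgeR adjusted p = 0.0207), and the call was lost without YY1 KO replicate 3 or control replicate 2 (edgeR adjusted p of 0.0166 to 0.0629 over the fits without 1 library). Dusp12, which carries a zinc-binding domain, had 6.47, 5.23, 5.78 and 7.73 CPM in YY1 KO hearts, against 9.30, 9.11, 8.97 and 8.47 CPM in controls. It was lower (log2 fold change −0.51 ± 0.15, edgeR adjusted p = 0.0229), also without overlap, and its call was lost without YY1 KO replicate 2 or 3, or control replicate 2 (edgeR adjusted p of 0.00907 to 0.0681 over the fits without 1 library). Dusp3, which can dephosphorylate ERK and JNK, did not pass and averaged 198 ± 20.7 CPM in YY1 KO hearts and 219 ± 44.5 CPM in controls. Styx, a pseudophosphatase that binds ERK in the nucleus, had groups that did not overlap but missed the threshold (log2 fold change −0.27 ± 0.13, edgeR adjusted p = 0.114).

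**Figure D2:**
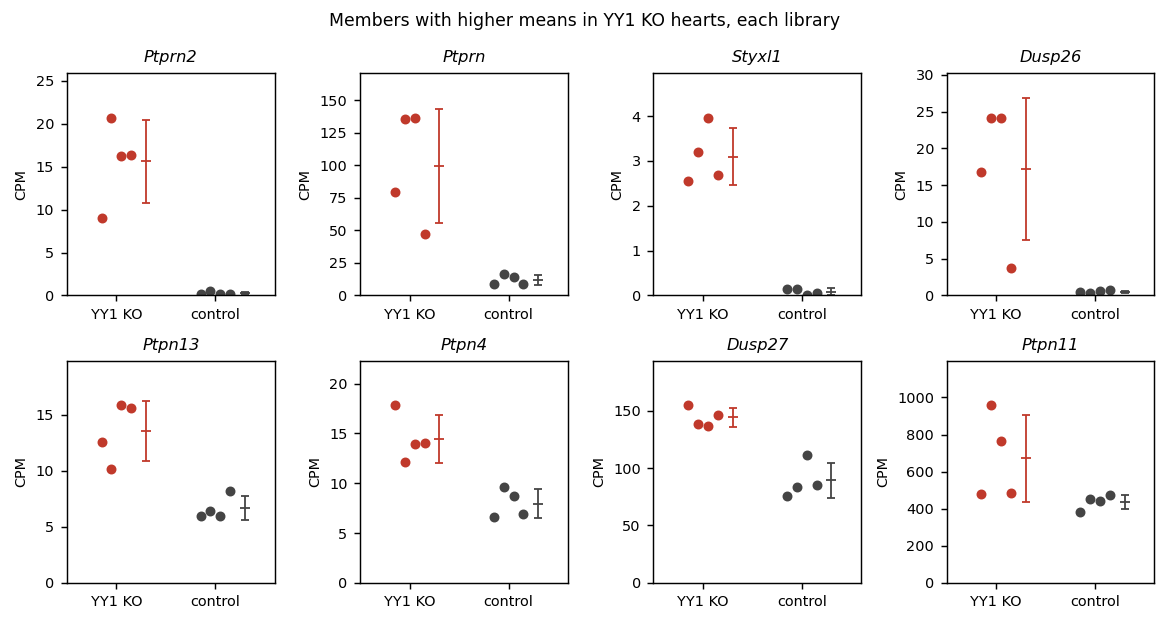
CPM in each library for 8 members with higher means in YY1 KO hearts, with YY1 KO replicates left of control replicates in each panel, a separate linear axis from 0 per panel, and bars for mean ± SD. The plotted Ptprn2, Styxl1 and Dusp26 values of controls lie close to 0, and in the Dusp26 panel YY1 KO replicate 4 lies far below its group.

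Of the MAP kinase phosphatases, Dusp1, Dusp6 and Dusp7 fell and Dusp4 rose in YY1 KO hearts. Of 10 in the family 8 were tested, 1 was higher, 3 were lower and 4 did not pass. The shares over all genes tested were 21.6% higher and 17.3% lower, and nothing is read from counts this small. Dusp1, or MKP-1, a nuclear phosphatase induced early by stress that acts on p38 and JNK, had 77.6, 75.6, 74.97 and 70.5 CPM in YY1 KO hearts, against 99.1, 107, 103 and 114 CPM in controls. All YY1 KO values lay below all controls (log2 fold change −0.50 ± 0.075, edgeR adjusted p = 0.00137). Dusp6, or MKP-3, the cytoplasmic phosphatase with a preference for ERK, had 25.9, 26.3, 25.9 and 24.2 CPM in YY1 KO hearts, against 27.5, 32.4, 39.4 and 41.3 CPM in controls. Its groups were also separate (log2 fold change −0.46 ± 0.13, edgeR adjusted p = 0.0206). Dusp7, a close relative of Dusp6 that also acts on ERK in the cytoplasm, had 20.3, 24.9, 27.6 and 33.9 CPM in YY1 KO hearts, against 69.2, 61.2, 53.7 and 49.8 CPM in controls. It fell furthest of the called members (log2 fold change −1.13 ± 0.16, edgeR adjusted p = 0.00117).

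Dusp4, or MKP-2, a nuclear phosphatase induced through ERK, went the other way. It had 5.99, 11.8, 5.78 and 4.55 CPM in YY1 KO hearts, against 1.97, 1.92, 5.12 and 3.16 CPM in controls. The groups overlapped, since control replicate 3 was above YY1 KO replicate 4 (log2 fold change 1.20 ± 0.39, edgeR adjusted p = 0.0382). The call was lost without YY1 KO replicate 1, 2 or 3, or control replicate 1, 2 or 4 (edgeR adjusted p of 0.0139 to 0.0989 over the fits without 1 library). Dusp5, which holds ERK in the nucleus, had 5.70, 5.09, 5.72 and 2.37 CPM in YY1 KO hearts, against 8.31, 7.19, 9.98 and 6.58 CPM in controls. Its groups did not overlap and it missed the threshold (log2 fold change −0.76 ± 0.27, edgeR adjusted p = 0.0524). Dusp5 passed with RLE scaling, DESeq2, limma-voom, sense-strand counts or the replicate number as a block, with adjusted p over the alternative fits to all 8 libraries of 0.0206 to 0.0749. It also passed without YY1 KO replicate 4, its lowest library (edgeR adjusted p = 0.0453, log2 fold change −0.54). Dusp8, Dusp10 and Dusp16, the phosphatases that prefer JNK and p38, had log2 fold changes of −0.33 ± 0.14, 0.11 ± 0.25 and −0.17 ± 0.13 and did not pass. Dusp1 and Dusp7 remained called in every alternative fit to all 8 libraries and without each library in turn. The call of Dusp6 was lost without YY1 KO replicate 3, or control replicate 3 or 4 (edgeR adjusted p of 0.00432 to 0.0517 over the fits without 1 library). It was also lost with library size alone and with the replicate number as a block.

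The kinases these phosphatases act on, and the genes that answer to them, were read from lists made with earlier results of these data known. Of 39 tested genes of the MAP kinase cascade, 6 were higher and 9 lower (15.4% and 23.1%, median log2 fold change −0.11). Map2k6, an activator of p38, averaged 1.48 ± 0.411 CPM in YY1 KO hearts and 6.06 ± 2.46 CPM in controls (log2 fold change −2.02 ± 0.35, edgeR adjusted p = 0.00230). It was lower, as were the upstream kinases Map3k1 (log2 fold change −0.98 ± 0.14, edgeR adjusted p = 0.00119) and Map3k4 (log2 fold change −0.77 ± 0.11, edgeR adjusted p = 0.00119). Of 29 tested feedback inhibitors and early targets, 10 were lower and 3 higher, or 34.5% and 10.3%, against 17.3% lower and 21.6% higher over all genes tested. Their median log2 fold change was −0.38. The lower count was 5 without YY1 KO replicate 3 and 5 without control replicate 2, given without the counts over all genes in those fits. Klf2, a shear-responsive transcription factor of endothelium, averaged 69.5 ± 5.71 CPM in YY1 KO hearts and 124 ± 8.63 CPM in controls (log2 fold change −0.83 ± 0.090, edgeR adjusted p = 0.000363). Etv5, an ETS factor downstream of ERK in fibroblast growth factor signalling, went the other way at 74.5 ± 21.8 CPM in YY1 KO hearts and 19.7 ± 8.36 CPM in controls (log2 fold change 1.92 ± 0.31, edgeR adjusted p = 0.00171), as did Jund (log2 fold change 0.68 ± 0.11, edgeR adjusted p = 0.00210) and Ier3 (log2 fold change 1.20 ± 0.22, edgeR adjusted p = 0.00307).

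**Figure D3:**
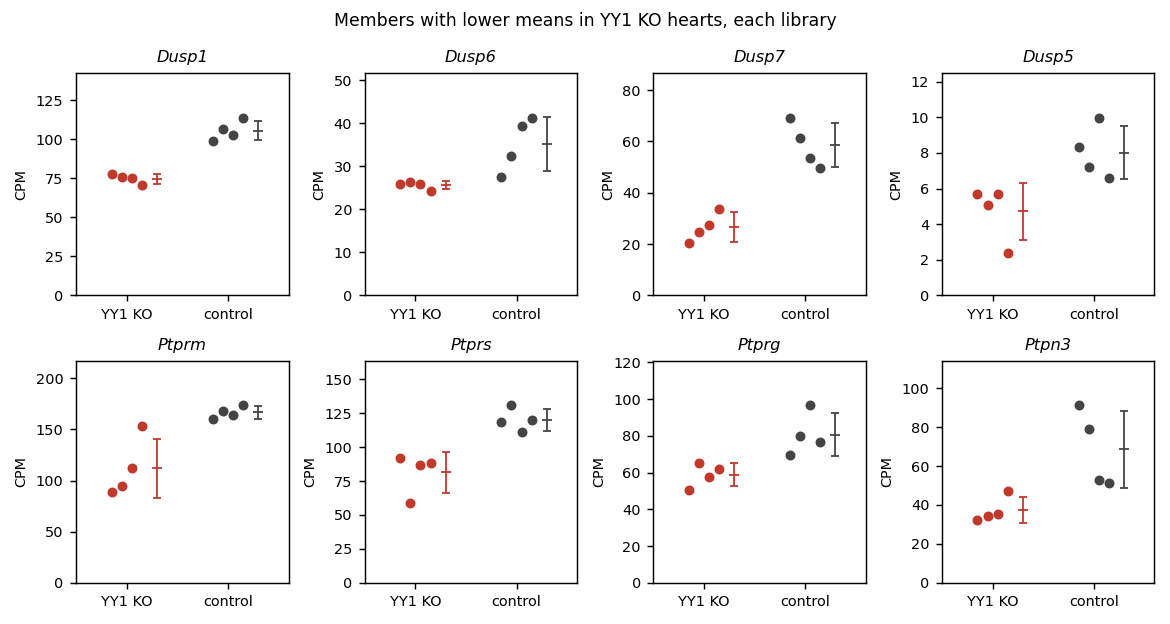
CPM in each library for 8 members with lower means in YY1 KO hearts, with YY1 KO replicates left of control replicates in each panel, a separate linear axis from 0 per panel, and bars for mean ± SD. In the Dusp1 and Dusp7 panels every YY1 KO point lies below every control point.

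Among the non-receptor phosphatases the FERM-domain members, which sit at the membrane cytoskeleton, had 3 higher and 1 lower of 5, out of 6 calls in the class. With 21.6% of all genes tested higher and 17.3% lower, counts over so few members are a description only. Ptpn13, a very large scaffold with several PDZ domains, had 12.6, 10.2, 15.9 and 15.6 CPM in YY1 KO hearts, against 5.99, 6.41, 5.94 and 8.22 CPM in controls. All YY1 KO hearts were above all controls (log2 fold change 1.03 ± 0.18, edgeR adjusted p = 0.00247). Ptpn4 had 17.9, 12.2, 13.9 and 14.03 CPM in YY1 KO hearts, against 6.62, 9.61, 8.72 and 6.89 CPM in controls. The groups were separate (log2 fold change 0.86 ± 0.17, edgeR adjusted p = 0.00410). Its paralog Ptpn3, which binds the p38 isoform encoded by Mapk12, moved in the opposite direction and had 32.4, 34.2, 35.3 and 47.3 CPM in YY1 KO hearts, against 91.4, 78.8, 52.9 and 51.2 CPM in controls (log2 fold change −0.88 ± 0.21, edgeR adjusted p = 0.00985). Ptpn21 rose by less and had 75.4, 68.6, 70.9 and 67.0 CPM in YY1 KO hearts, against 56.8, 63.6, 61.7 and 59.6 CPM in controls (log2 fold change 0.22 ± 0.073, edgeR adjusted p = 0.0386). The call of Ptpn21 was lost when any single library other than YY1 KO replicate 4 was left out (edgeR adjusted p of 0.0400 to 0.102 over the fits without 1 library). Ptpn14, which binds the Hippo pathway effector YAP, did not pass (log2 fold change −0.22 ± 0.10, edgeR adjusted p = 0.0968).

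Ptpn2 and Ptpn23 were also higher. Ptpn2, or TC-PTP, which dephosphorylates JAK1 and STAT proteins, had 34.0, 32.7, 33.7 and 32.1 CPM in YY1 KO hearts, against 24.2, 23.9, 27.3 and 25.7 CPM in controls (log2 fold change 0.39 ± 0.078, edgeR adjusted p = 0.00455). Its close relative Ptpn1, the PTP1B that acts on the insulin receptor, averaged 38.4 ± 1.69 CPM in YY1 KO hearts and 36.0 ± 4.47 CPM in controls and did not pass. Ptpn23, a partner of the endosomal sorting machinery, had 63.6, 58.8, 54.4 and 55.2 CPM in YY1 KO hearts, against 32.7, 40.0, 43.7 and 45.2 CPM in controls (log2 fold change 0.52 ± 0.11, edgeR adjusted p = 0.00623). For each of these called genes the YY1 KO values were all above the control values. Ptpn11, or SHP2, which promotes Ras and ERK signalling, had 477, 959.5, 766 and 485 CPM in YY1 KO hearts, against 384, 449.8, 443 and 471 CPM in controls. The groups did not overlap, YY1 KO replicates 2 and 3, the YY1 KO hearts with Y-linked reads, were high, and the test missed the threshold (log2 fold change 0.62 ± 0.23, edgeR adjusted p = 0.0549). The log2 fold change was 0.17 in the hearts with Xist and 0.95 in those with Y-linked reads (difference of the effects, edgeR unadjusted p = 0.0145, adjusted p = 0.812). Ptpn11 passed with a term for sex (edgeR adjusted p = 0.0429), upper quartile scaling, library size alone, DESeq2, or without YY1 KO replicate 1 or 4, with adjusted p over the alternative fits to all 8 libraries of 0.0291 to 0.0816. Ptpn6, the SHP1 of blood cells, averaged 5.16 ± 1.05 CPM in YY1 KO hearts and 6.67 ± 1.93 CPM in controls and did not pass, and the summed leukocyte markers were 62.8 to 107 CPM in YY1 KO hearts and 64.2 to 123 CPM in controls, with overlap.

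Of the 3 LAR-type receptors, which guide axons and organise synapses, 1 fell, 1 rose and 1 did not pass. Ptprs, a LAR-type receptor that binds proteoglycans, had 91.8, 59.1, 87.1 and 88.5 CPM in YY1 KO hearts, against 119, 131, 111 and 119.9 CPM in controls (log2 fold change −0.56 ± 0.14, edgeR adjusted p = 0.0123). YY1 KO replicate 2 was the lowest, and no YY1 KO heart reached a control. Ptprd, of the same LAR type, went the other way with 13.8, 12.2, 11.9 and 9.35 CPM in YY1 KO hearts, against 8.17, 9.68, 5.75 and 6.96 CPM in controls, and its groups overlapped (log2 fold change 0.63 ± 0.19, edgeR adjusted p = 0.0250). The call of Ptprd was lost without YY1 KO replicate 1, 2 or 3, or control replicate 3 or 4 (edgeR adjusted p of 0.0163 to 0.0685 over the fits without 1 library). The third of the type, Ptprf, averaged 10.2 ± 3.51 CPM in YY1 KO hearts and 12.2 ± 3.90 CPM in controls and did not pass.

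Among the adhesion receptors Ptprm and Ptprk fell, and Ptpru did not pass. Ptprm and Ptprk encode receptors that bind their own kind on neighbouring cells. Ptprm had 88.8, 94.3, 112 and 153 CPM in YY1 KO hearts, against 160.0, 168, 164 and 174 CPM in controls (log2 fold change −0.57 ± 0.16, edgeR adjusted p = 0.0206). Ptprk had 29.0, 35.7, 31.3 and 35.2 CPM in YY1 KO hearts, against 34.7, 38.8, 50.3 and 48.4 CPM in controls (log2 fold change −0.39 ± 0.13, edgeR adjusted p = 0.0453), with overlap. Leaving out libraries ended both calls in places: that of Ptprm was lost without YY1 KO replicate 2 or 3 (edgeR adjusted p of 0.00116 to 0.0549 over the fits without 1 library), and that of Ptprk was lost when any single library other than control replicate 1 was left out (edgeR adjusted p of 0.0138 to 0.112 over the fits without 1 library). Ptprg, with a carbonic anhydrase-like outer domain, had 50.5, 65.2, 57.4 and 62.1 CPM in YY1 KO hearts, against 69.4, 80.0, 96.8 and 76.5 CPM in controls and fell without overlap (log2 fold change −0.46 ± 0.12, edgeR adjusted p = 0.0163).

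The receptors Ptpra and Ptpre, with short outer domains, moved in opposite directions. Ptpre had 7.18, 6.38, 5.98 and 5.36 CPM in YY1 KO hearts, against 6.69, 9.61, 18.6 and 13.7 CPM in controls, with overlap (log2 fold change −0.97 ± 0.29, edgeR adjusted p = 0.0255). Ptpra, an activator of Src, had 57.4, 57.9, 58.3 and 52.0 CPM in YY1 KO hearts, against 40.1, 42.5, 51.8 and 49.7 CPM in controls and was higher (log2 fold change 0.29 ± 0.10, edgeR adjusted p = 0.0414). The call of Ptpre was lost without YY1 KO replicate 2, 3 or 4, or control replicate 3 or 4 (edgeR adjusted p of 0.00492 to 0.0687 over the fits without 1 library). That of Ptpra was lost without YY1 KO replicate 1, 2 or 3, or control replicate 1, 2 or 4 (edgeR adjusted p of 0.0261 to 0.124 over the fits without 1 library). The summed endothelial markers were 1104 to 1293 CPM in YY1 KO hearts and 1460 to 1988 CPM in controls, and the summed mural markers 834 to 1032 CPM in YY1 KO hearts and 1233 to 1492 CPM in controls, neither with overlap, and Schwann and glial markers were 14.7 to 18.0 CPM in YY1 KO hearts and 19.7 to 32.7 CPM in controls, also without overlap. Ptprb, the VE-PTP of endothelium, did not pass (log2 fold change −0.11 ± 0.11, edgeR adjusted p = 0.481), nor did Ptprc, the leukocyte antigen CD45 (log2 fold change −0.35 ± 0.30, edgeR adjusted p = 0.366). Of the 10 endothelial markers 7 were lower and 1, Vwf, was higher (log2 fold change 0.96 ± 0.26, edgeR adjusted p = 0.0177). Over all genes tested, 17.3% were lower and 21.6% higher. The summed markers of macrophages, T cells, B cells and fibroblasts overlapped between the genotypes. The part of these cell types in the receptor values was not tested.

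Per kilobase of exon, the members spanned a wide range of levels. Ptpn11 was the highest at 89.7 CPM per kilobase in YY1 KO hearts and 58.3 in controls, followed in controls by Dusp3 (42.3 in YY1 KO hearts and 46.8 in controls) and Dusp1 (22.5 and 31.9). Ptprn reached 23.5 CPM per kilobase in YY1 KO hearts, against 2.86 in controls, a level near that of Dusp1 in the same hearts. Ptprn2 and Styxl1 stayed far lower even in YY1 KO hearts, at 1.81 and 1.75 CPM per kilobase, against 0.0316 and 0.0489 in controls. The plot of levels per kilobase shows most members close to the line of equal levels.

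**Figure D4:**
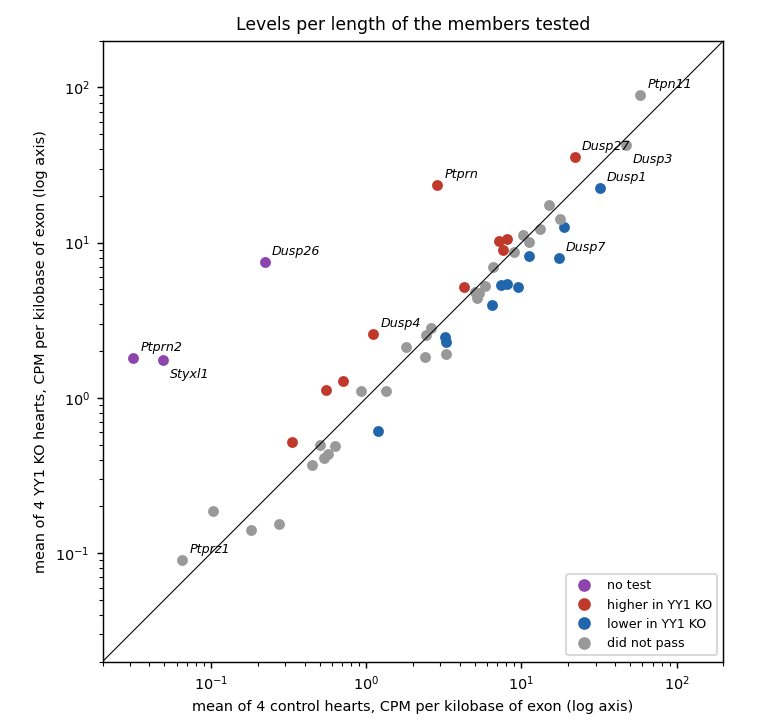
Mean CPM per kilobase of exon of each tested member in YY1 KO hearts (vertical axis) and controls (horizontal axis), both on log scales, with the line of equal levels. Ptprn2, Styxl1, Dusp26 and Ptprn lie well above the line, and most other members lie near it.

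The other 16 members that missed the threshold had log2 fold changes of −0.80 (Ptpn7) to 0.85 (Ptpn22), and the groups overlapped in each. They were Dusp11, Dusp18, Dusp19, Dusp22, Dusp28, Ptpn12, Ptpn18, Ptpn22, Ptpn7, Ptpn9, Ptprj, Ptpro, Ptprr, Ptpru, Ptprv and Ptprz1. Among them, Ptprj, a receptor of endothelial and blood cells, averaged 17.7 ± 0.684 CPM in YY1 KO hearts and 15.1 ± 3.63 CPM in controls, and Ptpn12, the PTP-PEST that acts on adhesion proteins, averaged 60.9 ± 6.64 CPM in YY1 KO hearts and 52.9 ± 13.6 CPM in controls. Dusp11, which removes phosphates from RNA ends, averaged 76.6 ± 7.92 CPM in YY1 KO hearts and 78.4 ± 6.39 CPM in controls, and Dusp22, which acts on the JNK pathway, averaged 24.4 ± 1.56 CPM in YY1 KO hearts and 25.5 ± 1.43 CPM in controls. Ptpn22, a phosphatase of lymphocytes, averaged 1.26 ± 0.352 CPM in YY1 KO hearts and 0.694 ± 0.297 CPM in controls, near the filter's limit.

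The 11 members that did not pass the filter were Ptprq, Ptprh, Ptprt, Ptpn5, Ptpn20, Dusp2, Dusp9, Dusp13, Dusp14, Dusp15 and Dusp21. Their highest value in any library was 1.02 CPM (Dusp13). Ptpn5, a brain phosphatase, and Dusp21, known from testis, had 0 reads in all 8 libraries, which allows up to 3 reads per library, or 0.178 to 0.213 CPM.

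The libraries kept strand, so reads of an overlapping gene can be seen. In 51 of the 53 tested members, under 10% of strand-resolved reads lay opposite to the gene in both groups. The exceptions were Dusp28 (18.2% in YY1 KO hearts and 3.24% in controls) and Dusp16 (12.2% in YY1 KO hearts and 4.51% in controls), neither of which passed the test. Ptpra overlaps an opposite-strand gene and had 6324 reads counted irrespective of strand and 9123 on its own strand, since reads in the overlap are given to neither gene when strand is ignored.

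All 21 called members besides Ptprn2, Styxl1 and Dusp26 had the same direction in the 4 hearts with Xist as in the 4 with Y-linked reads, for example Ptprn (2.83 and 3.14) and Dusp1 (−0.52 and −0.47). The log2 fold changes in the same order, as a description, were 5.94 and 5.74 for Ptprn2, 4.60 and 5.57 for Styxl1, and 4.16 and 5.67 for Dusp26. With a term for sex, 18 of the 21 calls were kept, and Ptpn21, Ptpra and Ptprk were lost. In a test of the difference of these effects by edgeR, 0 of 13506 genes passed at an adjusted p under 0.05 and 702 had an unadjusted p under 0.05, among them 5 family members. Each kind of heart counts 2 per genotype, which limits this comparison. A joint fit to all 8 libraries gave each kind of heart its own genotype effect. By it, 5 of the 21 members were called in the hearts with Xist and 7 in those with Y-linked reads. The share of all genes called by these effects is not given, so nothing is read from these counts. The 21 were called over these same hearts, so their shared direction is a description and no separate support.

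Genes of both directions were also found among phosphatases outside the naming rule and among the opposing kinases. Of 38 tested phosphatases of the same superfamily with other names, 6 were higher and 9 lower (15.8% and 23.7%, median log2 fold change −0.14). For this list and the next, the shares over all genes tested were 21.6% higher and 17.3% lower. The lower count was 4 without YY1 KO replicate 1, 3 without YY1 KO replicate 3, 4 without control replicate 2, 5 without control replicate 3 and 5 without control replicate 4, and the higher count was 3 without YY1 KO replicate 3 or control replicate 4. Ptpdc1, a phosphatase linked to cilia, averaged 21.7 ± 2.08 CPM in YY1 KO hearts and 11.9 ± 0.532 CPM in controls (log2 fold change 0.86 ± 0.10, edgeR adjusted p = 0.000472). Mtmr6, a lipid phosphatase of the myotubularin group, was higher (log2 fold change 0.47 ± 0.094, edgeR adjusted p = 0.00441), whereas Epm2a, the glycogen phosphatase laforin, was lower (log2 fold change −0.82 ± 0.16, edgeR adjusted p = 0.00378), as was Cdc25a, an activator of the cell cycle (log2 fold change −0.95 ± 0.19, edgeR adjusted p = 0.00427). Of 54 tested tyrosine kinases, 7 were higher and 13 lower (13% and 24.1%, median log2 fold change −0.21). The higher count was 4 without YY1 KO replicate 1 and 3 without control replicate 2. For both lists, counts over all genes in the fits without 1 library are not given, so nothing particular to the lists is read from these drops. Kdr, the endothelial VEGF receptor, averaged 151 ± 36.0 CPM in YY1 KO hearts and 349 ± 49.3 CPM in controls (log2 fold change −1.21 ± 0.18, edgeR adjusted p = 0.00129), and Epha4, an ephrin receptor, averaged 10.7 ± 5.48 CPM in YY1 KO hearts and 54.3 ± 22.2 CPM in controls (log2 fold change −2.34 ± 0.39, edgeR adjusted p = 0.00201). Abl2 was lower (log2 fold change −0.66 ± 0.12, edgeR adjusted p = 0.00247) and Fgfr1, a fibroblast growth factor receptor, higher (log2 fold change 0.65 ± 0.14, edgeR adjusted p = 0.00553).

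**Figure D5:**
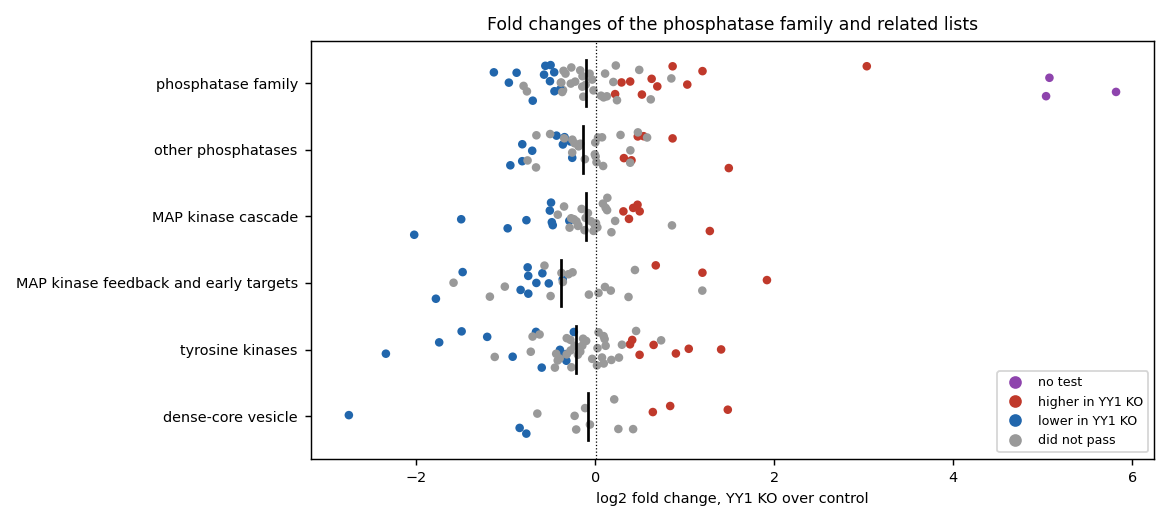
Log2 fold changes, YY1 KO over control, of the tested genes of the family and of the 5 related lists, with 1 point per listed gene and a bar at each median. The family row holds all 53 tested members, Ptprn2, Styxl1 and Dusp26 included, and its bar is at −0.11. The list medians lie between −0.38 (feedback and early targets) and −0.087 (dense-core vesicle), and the dotted line is at the median over all genes tested (0.013).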

How the data were processed

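For each mouse, the authors deposited a table of unnormalised read counts by gene symbol in the layout that STAR writes, with counts irrespective of strand and for each strand. Trimming with Trimmomatic and alignment to mm10 with STAR are named in the submitters' processing notes, without versions or the gene annotation. The labels' protocols describe Trizol extraction of frozen heart tissue and polyadenylated RNA. Reads assigned to no gene (33.0 to 38.9%) were left out.

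Counts irrespective of strand were tested with edgeR 4.0.16 (robust quasi-likelihood fit with TMM scaling, Benjamini-Hochberg over 13506 genes that passed filterByExpr with a minimum count of 10 in 4 libraries, threshold 0.05). CPM uses TMM-scaled library sizes. The SE of a log2 fold change is its absolute value divided by the square root of the edgeR F statistic. It restates that test and is no separate estimate. Replicates all differed by more than sampling noise. The members and lists were chosen with earlier results of these data known. All called members with a mean of at least 1 CPM, the 3 that led to the choice, and up to 4 called genes of each list with the smallest p are named. Of what this rule and the marker lists took, 2 genes are not reported here. Ptpn11, Dusp5, Styx and other members that did not pass are named as members of the family.

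Positions and exon lengths are from GENCODE M21 (GRCm38) and promoters from RefSeq. Alternatives were RLE, upper quartile and library-size scaling, DESeq2 1.42.0, limma-voom (limma 3.58.1), 2 filters and sense-strand counts. Others were the replicate number as a block, a term for sex and leaving out each library. Chosen after seeing the data, a joint fit to all 8 libraries gave a genotype effect for the hearts with Xist and for those with Y-linked reads. The test was checked on simulated counts. Tools were run in R 4.3.3 and Python 3.11.15, with figures from matplotlib 3.10.9.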

Additional observations from a re-analysis of the deposited data

Results flagged for a closer look

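In 108 groups of 4 values (each tested family member and Yy1, in YY1 KO hearts and in controls), 5 had 1 library far from the other 3 by Dixon's criterion, and chance alone flags about 1 group in 20. Ptprs had 59.1 CPM in YY1 KO replicate 2, below the 87.1 to 91.8 CPM of the other YY1 KO hearts. Ptpra had 52.0 CPM in YY1 KO replicate 4, below 57.4 to 58.3 CPM in the others. Among controls, Ptprn2 had 0.498 CPM in control replicate 2, above 0.190 to 0.211 CPM in the others, which is 3 to 7 reads per control library. Styx had 6.27 CPM in control replicate 1, below 7.40 to 7.59 CPM in the others. Ptpn22 had 1.14 CPM in control replicate 4, above 0.505 to 0.570 CPM in the others.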

How the results depend on the processing

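All 21 called members besides Ptprn2, Styxl1 and Dusp26 kept their direction in every setting tried, and 11 were called without each library in turn (Dusp1, Dusp7, Dusp27, Ptpn2, Ptpn3, Ptpn4, Ptpn13, Ptpn23, Ptprg, Ptprn and Ptprs). Some alternative fits to all 8 libraries also lost calls. RLE scaling and no filter on low counts each lost Ptpn21 and Ptpra. Library size alone lost Dusp6, Dusp12 and Ptprk, and limma-voom lost Ptpre and Ptprk. Without single libraries the family's lower count ranged from 5 to 12. The lower counts ranged from 3 to 8 for other phosphatases and from 5 to 15 for feedback and early targets, and the higher counts from 3 to 6 for other phosphatases and from 3 to 8 for tyrosine kinases. The lower count of other phosphatases was 5 with library size alone. That of dense-core vesicle genes was 5 with DESeq2. The cause of these shifts was not tested, and they are given without the counts over all genes in the same fits. In the joint fit, Ptprc, which did not pass in the main test, had a log2 fold change of 0.23 for the hearts with Xist in place of −0.35.

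Replicate numbers did not pair the hearts: correlations of same-numbered hearts were −0.46, 0.34, −0.06 and 0.27. With the replicate number as a block, 10 family members were higher (Ptprn2, Styxl1 and Dusp26 counted in) and 8 lower, Dusp5 among them, 14 of the 21 members remained called, and 2 of the other phosphatases were lower. The family calls lost with the block were Dusp4, Dusp6, Dusp12, Ptpn21, Ptpra, Ptpre and Ptprk. The counts over all genes with the block are not given here. Depth limits Ptprn2 and Styxl1, with 16 and 5 control reads in all.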
